A study of Mus musculus with 2 samples.

Results

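The genes described here are those of vitamin D action and intestinal calcium absorption: S100g, Trpv6, Trpv5, Atp2b1, Vdr, Cyp24a1, Cyp27b1, Slc8a1, Calb1 and Casr. They were chosen by name, and every non-control probe whose gene name in the scanner files was one of these 10 was taken. That gave 15 probes of 55681 on each array, for 10 of 23429 named genes. The study incubated intestinal segments of wild-type male mice for 2 h and measured RNA of the epithelial cells on one-colour arrays, to look for bile acid-dependent targets of the nuclear receptor PPARα. Segments were given 0.5 µM cholic acid, a primary bile acid, or a vehicle of 0.05% DMSO and 0.25% ethanol, and the labels do not say whether cholic acid came in the same solvents. There was 1 array per condition, and none of the differences can be checked against replicates. The labels give neither the mouse strain and age, nor the number of animals, nor the place along the gut from which segments were cut.

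Calcium crosses the intestinal epithelium by a route through the cell and by one between cells. In the cellular route the channel TRPV6 lets calcium in at the brush border, calbindin-D9k, the product of S100g, binds and carries it through the cytosol, and the pump PMCA1, the product of Atp2b1, drives it out at the basolateral side. The active hormone is made by CYP27B1 and broken down by CYP24A1, and it acts through the vitamin D receptor VDR, which induces S100g, Trpv6 and Cyp24a1 in the intestine. VDR also binds lithocholic acid, a secondary bile acid.

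The probes of the 4 members that could be measured on both arrays are shown because each member's value rests on these 60 bases. They are written 5′ to 3′ as the scanner files give them, with mm9 positions, and the positions relative to exons and untranslated regions of mm9 were not analysed here. The capitals in the 2 S100g probes mark the 46 bases they share, and the capitals in the Trpv6 probe mark AATAAA, the letters of the common polyadenylation signal.
S100g, chrX:159399924-159399983, minus strand: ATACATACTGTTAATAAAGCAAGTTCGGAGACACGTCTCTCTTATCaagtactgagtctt
S100g, chrX:159399938-159399997, minus strand: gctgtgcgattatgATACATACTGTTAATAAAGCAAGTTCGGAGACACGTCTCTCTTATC
Trpv6, chr6:41570624-41570683, minus strand: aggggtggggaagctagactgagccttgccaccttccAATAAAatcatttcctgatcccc
Atp2b1, chr10:98431670-98431729, plus strand: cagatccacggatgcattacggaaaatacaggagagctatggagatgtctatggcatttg
Atp2b1, chr10:98485775-98485834, plus strand: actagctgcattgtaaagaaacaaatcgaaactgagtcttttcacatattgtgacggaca
Vdr, chr15:97685136-97685195, minus strand: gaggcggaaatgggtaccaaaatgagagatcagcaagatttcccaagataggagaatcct

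The S100g probes are offset by 14 bases, so they read the same stretch of 1 transcript and are not independent measurements. The Atp2b1 probes, by contrast, start 54105 bases apart on chromosome 10. The letters AATAAA occurred in 4 of the 15 member probes, namely both of S100g, that of Trpv6 and 1 of Calb1. On the strand as written they occurred in 10.1% of all 55681 probes, and on the other strand in 1 member probe and in 3.74% of all probes.

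Both arrays gave usable spots for every member: 0 of the 15 probes were saturated on either array and 0 carried an outlier flag. By the scanner software's flag, 7 of the 15 were well above background in cholic acid and 6 in vehicle. Those 6 belonged to S100g, Vdr, Atp2b1 and Trpv6, which are therefore the 4 members measured on both arrays. Slc8a1 passed this flag with 1 of its 3 probes in cholic acid and with none in vehicle, and has only a bound. The other 5 members (Trpv5, Cyp24a1, Cyp27b1, Calb1 and Casr) were not well above background on either array.

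**Figure D1:**
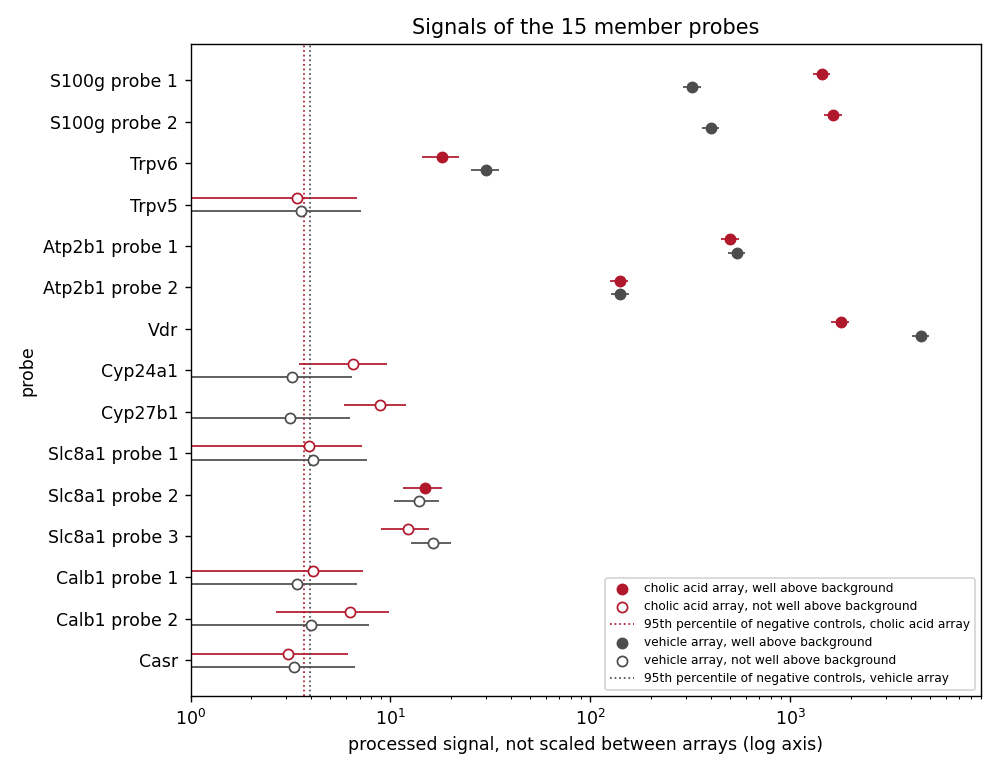
Processed signal of each of the 15 member probes (log axis, not scaled between arrays), with the cholic acid array above the vehicle array in each row. Bars are the scanner software's error of a signal and run off the left edge where the error is about as large as the signal; filled points are well above background, and dotted lines give the 95th percentile of negative control spots, 3.68 on the cholic acid array and 3.96 on the vehicle array. The S100g points lie further right on the cholic acid array, and the Vdr and Trpv6 points lie further right on the vehicle array.

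Of the 4 measured members, S100g was higher on the cholic acid array, by 6.12-fold, and the other 3 differed by less than 2-fold. Signals were scaled to the 75th percentile of probes well above background on both arrays, which was 741 on the cholic acid array and 1060 on the vehicle array. This scaling adds 0.52 to each unscaled log2 difference, and differences are cholic acid minus vehicle throughout. The count of members at least 2-fold higher was 1, where 6.49% of the 12734 genes measured on both arrays were, and the count at least 2-fold lower was 0, where 2.06% of those genes were. The 4 members had a median log2 difference of 0.12, beside 0.08 over all measured genes, with 2 members above 0 and 2 below.

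S100g, the cytosolic calcium buffer, had signals of 1440 ± 144 and 1640 ± 164 at its 2 probes on the cholic acid array, against 323 ± 32.5 and 400 ± 40.1 on the vehicle array. Here ± is the error that the scanner software assigns to a spot, which is not a spread between samples. Before any scaling the cholic acid signal was thus already 4.46-fold and 4.10-fold that of vehicle. After scaling the probes were 6.38-fold and 5.87-fold higher, and the gene's log2 difference was 2.61 with a software error of 0.20. For comparison, the 1000 genes of most similar signal had a robust SD of 0.36 in their differences. Ordered from the most positive difference down, S100g was at rank 20 of the 12734 genes. In these bulk samples, more or fewer cells of a type and more or less RNA per cell cannot be told apart.

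Vdr, the receptor that the hormone acts through, differed in the other direction. Its probe read 1780 ± 178 on the cholic acid array, against 4490 ± 449 on the vehicle array. The unscaled ratio was 0.396, and after scaling Vdr was 1.76-fold lower in cholic acid (log2 difference -0.82, software error 0.20), which did not reach 2-fold. The spread of its 1000 nearest genes was 0.38, and 3.64% of all measured genes had a lower difference. Vdr rests on 1 probe, so no other probe was available to set beside it.

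Atp2b1, the basolateral calcium pump, read nearly the same on both arrays before scaling. Its probes gave 500 ± 50.1 and 140 ± 14.3 on the cholic acid array, against 541 ± 54.2 and 141 ± 14.5 on the vehicle array. After scaling they stood at log2 differences of 0.40 and 0.51, and the gene at 0.45 with a software error of 0.21 (1.37-fold). That is close to the spread of 0.41 among the 1000 nearest genes. The positive sign comes with the scaling, since both unscaled log2 ratios were at or just below 0 (-0.11 and -0.01).

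Trpv6, the apical entry channel, was dim. Its probe read 18.1 ± 3.80 on the cholic acid array, against 30.1 ± 4.70 on the vehicle array, where the lowest signals called well above background were 13.01 and 14.6 on those arrays. The unscaled ratio was 0.601, a log2 ratio of -0.73. After scaling the log2 difference was -0.22 with a software error of 0.38. The difference thus lay within the measurement error of the spots with the scaling used here, but not before scaling. The entry channel, the buffer and the pump of the cellular route thus had scaled log2 differences of -0.22, 2.61 and 0.45. No test was possible of whether these 3 differ from each other between the conditions.

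**Figure D2:**
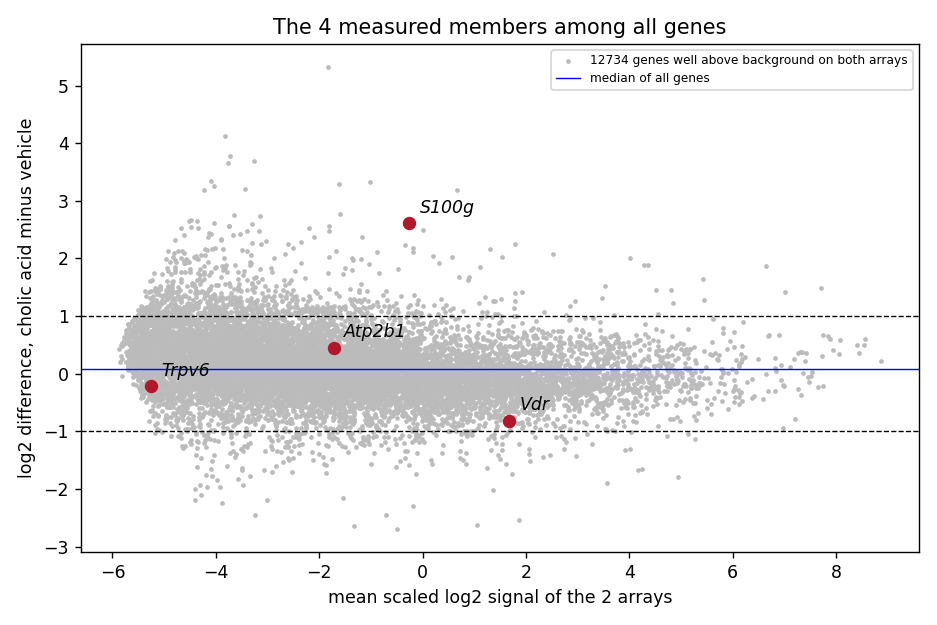
Log2 difference (cholic acid minus vehicle) against the mean scaled log2 signal of the arrays for the 12734 genes well above background on both; dashed lines mark 2-fold and the blue line the median of all genes, 0.08. S100g lies at 2.61, while Atp2b1 (0.45), Trpv6 (-0.22) and Vdr (-0.82) lie between the dashed lines.

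The hormone's enzymes were at the edge of detection. Cyp27b1, which makes the active hormone mainly in the kidney, read 8.91 ± 3.07 on the cholic acid array, against 3.13 ± 3.15 on the vehicle array. Cyp24a1, which breaks it down and is a classical VDR target, read 6.53 ± 3.06 on the cholic acid array, against 3.20 ± 3.21 on the vehicle array. On the vehicle array both values were surrogates that the software sets for spots not distinguished from background. On the cholic acid array both carried the weaker flag of a positive and significant signal, and their signals exceeded 99.7% and 99.4% of the 308 negative control spots, for Cyp27b1 and Cyp24a1 in that order. Neither was well above background on either array, so no fold change is given for them.

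Slc8a1, the sodium-calcium exchanger NCX1 that is best known from heart muscle, had its 3 probes at 14.8, 12.3 and 3.91 on the cholic acid array, against 13.9, 16.3 and 4.08 on the vehicle array. The probe with 14.8 and 13.9 was well above background in cholic acid alone, with a bound of 1.45-fold higher there after scaling. Before scaling its ratio was only 1.06, with software errors of 3.31 and 3.49 on the 2 signals. The bound is the cholic acid signal set against the lowest vehicle signal called well above background, 14.6. It is not a strict limit, since the probe that read 16.3 in vehicle failed the flag there. The probe with 12.3 and 16.3 had a lower unscaled signal in cholic acid, so these probes did not go the same way before scaling. The probe at 3.91 and 4.08 starts 56969 bases from the farther of the other 2, and exceeded 98.7% of negative control spots in cholic acid and 97.1% in vehicle.

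The remaining members were also not well above background. The probe of Trpv5, the related channel of the kidney's distal tubule, read 3.39 on the cholic acid array and 3.56 on the vehicle array. Calb1, calbindin-D28k of kidney and brain, had probes at 6.25 and 4.12 on the cholic acid array, against 4.02 and 3.40 on the vehicle array. Casr, the calcium-sensing receptor of parathyroid and gut endocrine cells, read 3.08 on the cholic acid array and 3.31 on the vehicle array. Negative control spots had medians of 3.10 and 3.33 on those arrays. By the weaker flag of a positive and significant signal, 1 Calb1 probe passed on both arrays, above 99.4% of negative control spots in cholic acid and 96.4% in vehicle, and the other passed in cholic acid alone. The Trpv5 and Casr probes passed neither flag on either array, which does not show that the transcripts were absent.

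The scaling bears on these differences. Over 12 alternative settings the median difference of all genes moved from 0.08 by between -0.89, with spike-in probes set equal, and 0.32, with no filter on dim probes. S100g stayed at least 2-fold higher in all 12, with log2 differences between 1.73 and 2.62. Set against each setting's own all-gene median, it lay between 2.21 and 2.66 above, and 2.53 above in the setting used here. The percentile over all probes, median centring and spike-ins shift every gene alike, so this distance could not move under them. Vdr was negative in all 12, from -1.71 to -0.78, and past 2-fold in 2 of them (-1.05 with the percentile over all probes, -1.71 with spike-ins). Atp2b1 was positive in 11 and at -0.43 with spike-ins. Trpv6 was negative in 11 and at 0.27 after normexp background correction, while the authors' processed values gave -0.64. Some of the 12 settings could not move these members. The positive and significant flag, no filter on dim probes and matching by accession returned the same values as the setting used here. Taking the brightest probe could not change Vdr or Trpv6, which have 1 probe each. The counts over 12 settings are therefore partly fixed in advance.

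**Figure D3:**
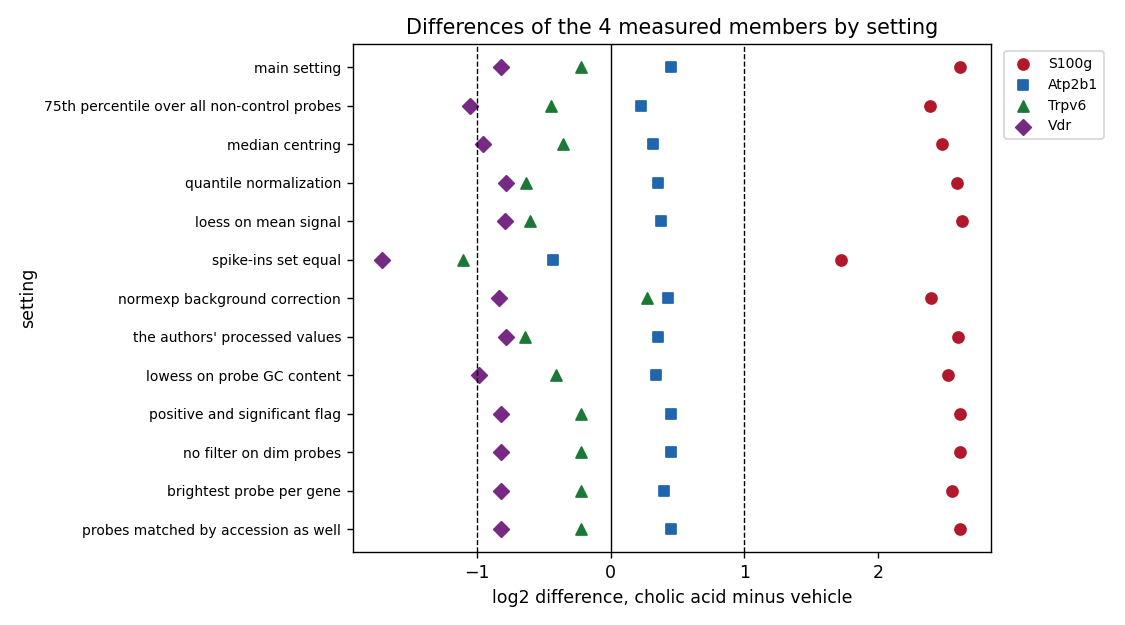
Log2 difference (cholic acid minus vehicle) of the 4 measured members in the setting used here and in 12 alternatives; dashed lines mark 2-fold. S100g lies right of 1 in every row and Vdr left of 0 in every row, while Atp2b1 crosses 0 with spike-ins set equal and Trpv6 with normexp.

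Other genes of the pathway were taken from 7 lists, 74 genes in all, of which 52 were measured on both arrays. At least 2-fold higher were 3 of them (5.77%) and at least 2-fold lower 2 (3.85%), beside 6.49% and 2.06% of all measured genes. Their median log2 difference was -0.11, against 0.08 over all genes.

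Among 17 genes of vitamin D supply and receptor partners, 15 were measured, with 0 at least 2-fold higher, 1 lower and a median of -0.17. The lower gene was Cyp27a1, a mitochondrial sterol hydroxylase that can also hydroxylate vitamin D (2.01-fold lower). It was dim, at 15.9 on the cholic acid array and 45.8 on the vehicle array. The lowest signal called well above background was 13.01 on the cholic acid array. Cyp2r1, the main enzyme that makes the circulating form of the vitamin, was 1.79-fold higher, at 1090 in cholic acid and 870 in vehicle. The RXR receptors, which pair with VDR on DNA, each differed by less than 2-fold: Rxra by -0.32, Rxrb by -0.22 and Rxrg by -0.10. Rxrg rests on 1 of its 2 probes, and was at -1.30 with no filter on dim probes. The 2 probes of Rxra went opposite ways, at -0.88 and 0.23. Cubn, the endocytic receptor cubilin, was 1.92-fold lower.

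Of 6 other intestinal genes that vitamin D induces, 5 were measured and 0 were at least 2-fold higher, where 6.49% of all measured genes were, so the count does not set them apart. The drug-metabolising enzyme gene Cyp3a11 was 2.80-fold lower in cholic acid, at a mean signal of 1245 on the cholic acid array and 4980 on the vehicle array. The 2 probes behind it gave -1.77 and -1.20. The phosphate transporter Slc34a2 was 1.83-fold lower, and Abcc2, Abcb1a and the manganese exporter Slc30a10 stood at 0.33, 0.15 and -0.08.

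Among 20 further genes of calcium entry, binding and exit, 16 were measured and 0 were at least 2-fold apart in either direction, with a median of -0.02. The largest differences were those of the plasma membrane calcium pumps Atp2b2 (0.84, with signals of 73.2 in cholic acid and 58.3 in vehicle) and Atp2b4 (0.67, 92.7 and 83.1). The 3 calmodulin genes, which encode the general cytosolic calcium sensor, lay between -0.05 and 0.21. The exchanger gene Slc8a3 had a mean of 0.64 from probes at -0.33 and 1.61. Of the claudins of the route between cells, Cldn15 was at -0.58, Cldn12 at -0.40 and the dim Cldn2 at 0.33.

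Most measured relatives of S100g differed by less than 2-fold with the filter used here. Among 15 other S100 genes, 9 were measured, with a median of -0.12, 1 at least 2-fold higher and 0 lower. The higher one was S100a3, a dim gene at 35.0 on the cholic acid array and 22.8 on the vehicle array (2.20-fold). With the positive and significant flag 3 genes of this list were at least 2-fold higher, and with no filter on dim probes 4. Those settings put 11.7% and 12.2% of all genes past that limit. S100z, well above background in cholic acid alone, read 25.5 there and 14.5 in vehicle. Its bound of 2.50-fold higher after scaling is of the same kind as that of Slc8a1. The bright S100a6 was at -0.48, and S100a10, whose product binds TRPV6 together with an annexin, at -0.27. Of 4 other TRPV channel genes, 2 were measured and both were at least 2-fold higher, beside 6.49% of all measured genes. They were Trpv2 (2.27-fold, 184 in cholic acid and 116 in vehicle) and Trpv4 (2.04-fold, 101 and 70.7), each from 1 probe. Their log2 differences were 1.18 and 1.03, where the 1000 nearest genes had spreads of 0.49 and 0.52. Trpv4 has 2 probes on the array, of which 1 was used. With the positive and significant flag or no filter on dim probes, Trpv4 fell under 2-fold. Trpv1 and Trpv3 were not well above background on either array. Trpv2 is also expressed in immune cells. Of 9 genes of hormone receptors and stanniocalcins, 7 failed the well-above-background flag on both arrays, and the receptors of prolactin and growth hormone, Prlr and Ghr, were at -0.55 and -0.71.

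These pathway genes were followed through the same 12 settings, of which those that only widen the filter cannot move a gene with no further probe to gain. Cyp3a11 was at least 2-fold lower in all 12 and Cyp27a1 in 11, with a difference of -0.02 after normexp correction. Trpv2, Trpv4 and S100a3 were positive in all 12 but past 2-fold in 9, 2 and 5 of them. Cyp2r1, Atp2b2, Atp2b4 and Abcc2 kept a positive sign except with spike-ins set equal (-0.05, -0.04, -0.21 and -0.55). Signs also changed for Rxra (up to 0.23), Slc8a3 (down to -0.33), Slc30a10 (up to 0.05), Abcb1a (down to -0.74) and Cldn2 (down to -0.56), so no direction is given for them.

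**Figure D4:**
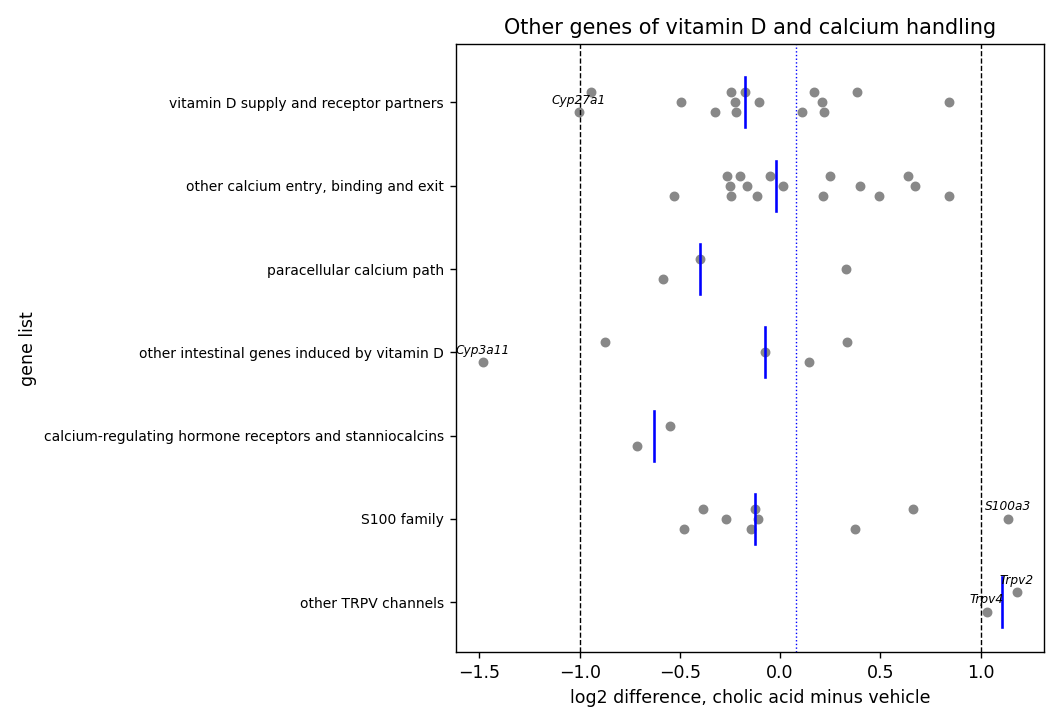
Log2 difference (cholic acid minus vehicle) of each measured gene of the 7 pathway lists; blue bars are list medians, the dotted line is the median of all genes (0.08) and dashed lines mark 2-fold. Names are given for the 5 genes at least 2-fold apart, and most points lie between the dashed lines.

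Markers of gut position and of other cells also differed between the arrays, and their part in the S100g result was not tested. S100g itself is known to be highest in the proximal small intestine. Of 9 other proximal markers, 7 were measured, with a median of -0.44. At least 2-fold higher were 0 and lower 3, beside 6.49% and 2.06% of all measured genes. The lower ones were Slc46a1 (5.79-fold), Onecut2 (4.92-fold) and Apoa4 (3.45-fold). The other measured proximal markers lay between -0.44 (Lct) and 0.02 (Slc40a1). Of 9 distal markers, 8 were measured, with a median of 0.62. At least 2-fold higher were 3, beside 6.49% of all genes: Fabp6 (39.9-fold), Slc10a2 (4.79-fold) and Gcg (2.02-fold). The other 5 lay between -0.94 and 0.74, with Nts at 0.06 and Slc51a at 0.26, and the lowest of them was Cubn, named above among the genes of vitamin D supply. Fgf15 failed the well-above-background flag on both arrays. The 8 enterocyte markers, all measured on both arrays with none past 2-fold, had differences between -0.68 and 0.61. Of 9 T cell markers, all measured, 4 were at least 2-fold higher, beside 6.49% of all genes, with a median of 0.87. The other 5 did not reach 2-fold, and Cd4 went the other way, at 5650 in cholic acid and 13200 in vehicle (-0.71). Of 7 B and plasma cell markers, 5 were measured and 4 of these were at least 2-fold higher, beside 6.49% of all genes. Their median was 1.54, while the plasma cell marker Jchain was at 0.02. The B cell marker Ms4a1 was well above background in cholic acid alone, at 164 in cholic acid and 3.73 in vehicle. Set against all genes in each of the 12 settings, the medians of proximal markers lay between -0.84 and -0.48, and those of distal markers between 0.11 and 0.70. On the same scale T cell markers lay between 0.48 and 0.95, and B and plasma cell markers between 0.86 and 2.20. Settings that shift every gene alike could not move these distances. Slc8a1 is also expressed in smooth muscle, whose markers had a median of 0.98 over 5 of 7 genes, while Myh11 and Des failed the well-above-background flag on both arrays.

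The 3 named genes whose log2 difference lay nearest to that of S100g were Kif12 (2.62), Pou2af1 (2.60) and Cr2 (2.65), at distances of 0.0053, 0.014 and 0.033. These distances are below the software error of 0.20 on the S100g difference, so which genes lay nearest is not resolved. This likeness is over 2 arrays only, and all 3 were dimmer on the vehicle array, with signals of 26.1, 43.7 and 18.4 there. Pou2af1 and Cr2 are known from B cells, and a link between S100g and any of these 3 genes was not tested.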

How the data were processed

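RNA of intestinal epithelial cells was hybridised to 2 one-colour Agilent arrays of design 028005, 1 for cholic acid and 1 for vehicle, per the file headers. The deposited intensity of each spot was background-subtracted and detrended within its array by Feature Extraction 10.7.1.1, with surrogates for dim spots, per the file headers (9.5.1.1 per the submitters' processing notes). The same deposited files hold other flags per spot and a p-value for equality with background. Spots with outlier flags were left out, log2 signals averaged per probe, and the 75th percentile over probes well above background on both arrays (22612 of 55681) was subtracted. The probes that passed on both arrays were 40.6% of all non-control probes. Genes were named by accession through RefSeq (27318 probes) of GRCm38.p6, then by symbol (3527), synonym (548) or the files' name (1189), and 23099 probes had no gene name. All 15 member probes matched by both name and accession or symbol. A gene was the mean over its probes above background on both arrays, and a bound set a bright probe against the lowest signal called well above background, or the dim probe's own if higher. With 1 array per group no test was run, and genes were counted by size (2-fold). The number of arrays limits the precision. The named genes were all members, list genes at least 2-fold apart or otherwise the 2 with the largest difference, and the 3 genes nearest to S100g; other list genes are examples chosen after their values were seen. Members, lists and settings were chosen with earlier results of these data known. The computation was tested on simulated data. Tools were Python 3.11.15, pandas 2.3.3, statsmodels 0.14.6 and limma 3.58.1.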

Additional observations from a re-analysis of the deposited data

How the results depend on the processing

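With 1 array per condition, no replicate could be left out. No paired analysis was possible because each group holds 1 sample. The count of members at least 2-fold higher (1, S100g) became 2 with the positive and significant flag, which adds Calb1. It became 3 with no filter on dim probes, which adds Cyp24a1 and Cyp27b1. Those settings put 11.7% and 12.2% of all genes at least 2-fold higher, against 6.49% in the setting used here. The counts therefore do not set the added members apart, and their signals were near background. The count of members at least 2-fold lower (0) became 1 with the percentile taken over all probes and with a 1.5-fold limit (Vdr each time), and 2 with spike-ins set equal (Vdr and Trpv6). Member probes above background on both arrays numbered 6, or 10 by the positive and significant flag, under which 2 members rather than 1 have only a bound. Probes matched by accession added none. Of the 52 pathway genes, 3 were at least 2-fold higher. This became 0 with the percentile over all probes, spike-ins or normexp. It became 1 with quantile normalization, loess, the authors' processed values or the GC lowess. It became 5 with the positive and significant flag or no filter, which take in pathway genes beyond the 52. At a 1.5-fold limit 8 of the 52 were higher and 5 lower, and at 3-fold 0 were in either direction. No share of all genes was counted at these limits. The 2 pathway genes at least 2-fold lower became 4 with the percentile over all probes, median centring, quantile normalization or the authors' values, 26 with spike-ins, and 1 with normexp. Across all genes, spike-ins put 0.848% at least 2-fold higher and 33.1% lower, and the percentile over all probes 3.27% and 4.22%. In the same order, median centring gave 4.23% and 3.07%, and quantile normalization 3.45% and 3.28%. The authors' values gave 3.48% and 3.31%, and loess 3.87% and 2.94%. The GC lowess gave 4.37% and 2.96%, and normexp 2.09% and 0.817%. The cause of these changes was not tested, apart from the shifts and wider filters that the settings themselves apply.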
